A study of Mus musculus with 4 samples.

Results

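Trp53bp1 is the mouse gene for 53BP1, the protein missing from the knockout cells of this study, and the question here was what Rad21 peak lists show at the gene itself and around it. Its interval was taken as about 121019000 to 121096000 on chromosome 2 of the mouse build mm9 (77 kb), inside a window of 1.1 Mb, chr2:120500000-121600000, that adds 519 kb on the lower side and 504 kb on the upper side. The peaks of 4 libraries that lay fully inside this window merged into 24 regions, of 34743 merged regions in all. Of the 24 regions, 0 overlapped the gene, 12 lay on its lower side and 12 on its upper side.

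The libraries came from v-Abl transformed pro-B cell lines, that is, B cell precursors made immortal by the kinase of a retrovirus. All 4 carried the Emu-Bcl2 transgene, which keeps arrested cells alive, were RAG1 deficient and thus could not start V(D)J recombination, and were kept for 4 days in 3 uM STI-571, an inhibitor of the viral kinase that arrests the cells. The 2 WT libraries had no further change, and the 2 knockout (KO) libraries added the 53BP1 knockout to the same background. The labels do not give the position or size of the altered stretch of Trp53bp1, the number of clones or whether the libraries of a genotype were separate cultures, so the spread between them may be technical. The titles and the protocol name a Rad21 antibody, and the treatment field of every sample names one against 53BP1; the libraries are called Rad21 libraries here. Peak lists hold no measure of the 53BP1 protein or transcript.

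53BP1 binds chromatin beside DNA double-strand breaks by reading histone marks, among them ubiquitin placed by the ligase RNF168. It recruits RIF1 and the shieldin complex, which protect the broken ends from resection and favour their joining, and in B cells it is known for its part in class switch recombination. Rad21 closes the ring of cohesin, the complex that extrudes chromatin loops, and its peaks commonly lie where CTCF halts the ring.

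In RefSeq's gene order Trp53bp1 lies on the minus strand, so that its 5′ end faces the upper side of the window. Its neighbours there are Map1a, which encodes a microtubule-associated protein, Ppip5k1, an inositol pyrophosphate kinase, and Ckmt1, a mitochondrial creatine kinase. Toward the lower side come Tubgcp4, a part of the gamma-tubulin ring complex, then Zscan29 and Adal. No mm9 annotation was used here, so the regions of the window carry positions and no gene names.

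The promoter of Trp53bp1 is shown because it is the part of the gene at which a Rad21 peak tied to the start of transcription or to CTCF would be looked for, and no list had a peak at the 5′ end of the gene. The 300 bases run 5′ to 3′ on the gene's strand, from 250 bases before the RefSeq start to 50 after it. In GRCm38.p6, which is not the build of the peak lists, they are chr2:121271358-121271657, minus strand. Capitals mark the matches to the motifs searched.
Trp53bp1 promoter: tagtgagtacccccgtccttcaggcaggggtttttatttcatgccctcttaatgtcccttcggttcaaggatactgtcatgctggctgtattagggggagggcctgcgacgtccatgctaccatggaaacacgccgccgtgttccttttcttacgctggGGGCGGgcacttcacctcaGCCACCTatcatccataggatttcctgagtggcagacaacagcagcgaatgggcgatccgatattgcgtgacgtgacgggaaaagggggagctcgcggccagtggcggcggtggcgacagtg

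Both strands were searched for 3 motifs, and their matches did not overlap. The GC box GGGCGG, which Sp1-type factors bind, occurred once, at bases 160 to 165 of the printed run, and 35.7% of 32851 promoters of the same length in the table hold it. The letters AGGNGGC, the end of the CTCF core, occurred once on the opposite strand, at bases 179 to 185, and 29.4% of promoters hold them. The CCAAT box, searched as CCAAT, had 0 matches here, and 37.4% of promoters hold it. The run held 20 CG dinucleotides, against a median of 7 over all promoters of the table, and 73.5% of promoters held fewer. G and C made up 57.3% of its bases, against a median of 52.7%. These letters describe the sequence and were not placed against any peak.

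No library called a Rad21 peak in Trp53bp1: WT replicates 1 and 2 and KO replicates 1 and 2 each held 0 peaks in the gene, covering 0 kb of it. The longest stretch of the gene without a peak was therefore the whole gene in every list. With 0 peaks in the WT lists there was no peak for a deletion to remove, and the lists cannot tell apart an intact gene from a partly deleted one. Nor did either KO list gain a peak in the gene. A gene-sized stretch without a peak was common, since 54.8% of 34253 end-to-end tiles of that length along the chromosomes held 0 peaks in all 4 libraries.

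The peak-free stretch reached well past the gene on both sides. In the WT lists it ran from 120996912 to 121222314 in replicate 1 (225 kb) and from 120928469 to 121164877 in replicate 2 (236 kb). In the KO lists it ran from 120928217 to 121181180 in replicate 1 (253 kb) and from 121014496 to 121222377 in replicate 2 (208 kb). Of their 8 ends, 4 were at a region that all 4 libraries called and 4 at a peak of a single library, and the KO lengths lay on either side of both WT lengths. Shared by all 4 lists were 150 kb, chr2:121014496-121164877, that no peak touched. Of 34723 gaps between neighbouring merged regions, 8.78% were at least as long, and the median gap was 24.5 kb. By length, such gaps made up 59.5% of all gap sequence, so a position between peaks commonly lay in a gap of this size. The gap was not the longest in the window, where 202 kb at its upper edge, from 121397979 on, also held 0 peaks in any library. The gap lengths are plotted for the whole genome with the gap over Trp53bp1 marked.

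**Figure D1:**
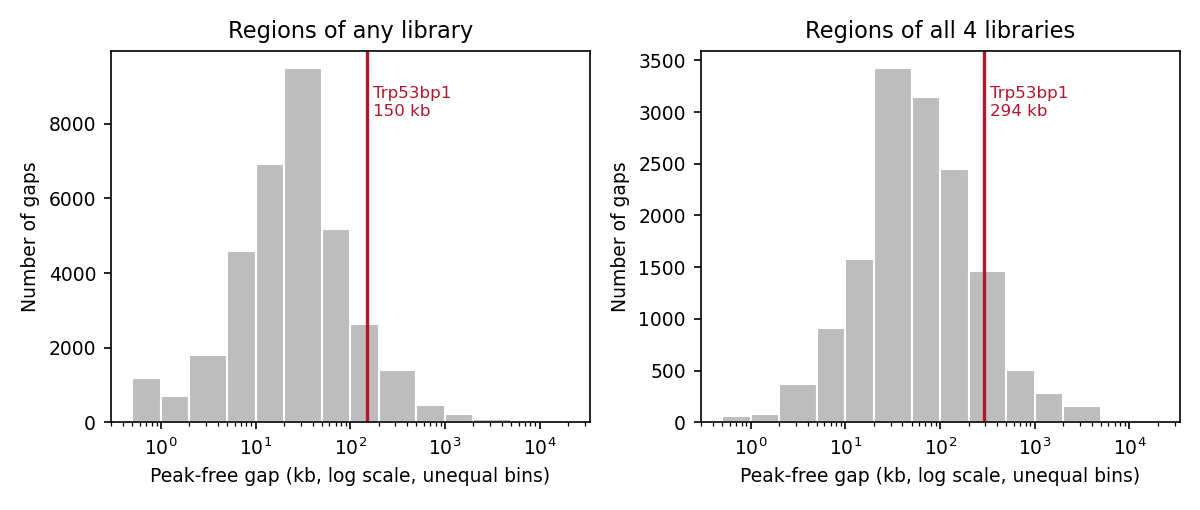
Number of peak-free gaps (y axis) by length in kb (x axis, log scale, unequal bins) between neighbouring regions of any library (left) and of all 4 libraries (right), with the gap over Trp53bp1 as a red line. The lines at 150 kb and 294 kb lie to the right of the tallest bars, with 8.78% and 11.4% of gaps at least as long. Those gaps hold 59.5% and 64.4% of the total gap length.

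The peaks nearest to the gene were each called in a single library. On its lower side, beyond the 3′ end, KO replicate 2 had a peak at chr2:121013773-121014495, 4.5 kb from the gene, with a fold of 3.27 over background (the caller's own value, as are all folds here) and a −log10 q of 1.25. That fold lay at percentile 20.1 of its own list, and the lowest −log10 q in any list was 1.01. It was the sole peak within 5 kb of the gene in any library, so widening the gene by that distance gave 1 peak in KO replicate 2 and 0 in each other list. WT replicate 1 had the next one, chr2:120996709-120996911, 22.1 kb away with a fold of 3.65 and a −log10 q of 1.74. On the upper side, beyond the 5′ end, the nearest were chr2:121164878-121165272 in WT replicate 2 (68.9 kb away, fold 3.52) and chr2:121181181-121181384 in KO replicate 1 (85.2 kb away, fold 3.90). Each genotype thus had 1 such peak on each side, and 0 of the 4 was found in both libraries of a genotype.

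The gene lay between a pair of regions that all 4 libraries called, with 294 kb between them. The nearest shared region on the lower side, chr2:120927730-120928660, 90.3 kb from the gene, was also the strongest shared one of that side, ranked by the lowest within-list percentile of fold among the 4 libraries. Its folds were 5.89 and 5.49 in WT and 6.03 and 4.46 in KO replicates 1 and 2, and its peaks were 806, 670, 422 and 928 bp wide in the same order. KO replicate 1 was the highest in fold and the narrowest, and KO replicate 2 the lowest in fold and the widest, so in both measures the KO pair bracketed the WT pair. The nearest shared region on the upper side was chr2:121222315-121222872, 126 kb from the gene, where WT folds were 4.94 and 5.11 and KO folds 4.15 and 3.87. Both KO folds lay below both WT folds there, while the widths of 558, 334, 384 and 395 bp overlapped. No share of all shared regions with folds separated in this way was computed. Whole-list median folds were 4.1 and 4.06 in WT and 4.15 and 3.67 in KO, so KO replicate 2 had lower folds in general. Among neighbouring regions of all 4 libraries, 11.4% of 14464 gaps were at least as long as the one that holds the gene, and the median was 60 kb. By length, those gaps made up 64.4% of all such gap sequence.

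**Figure D2:**
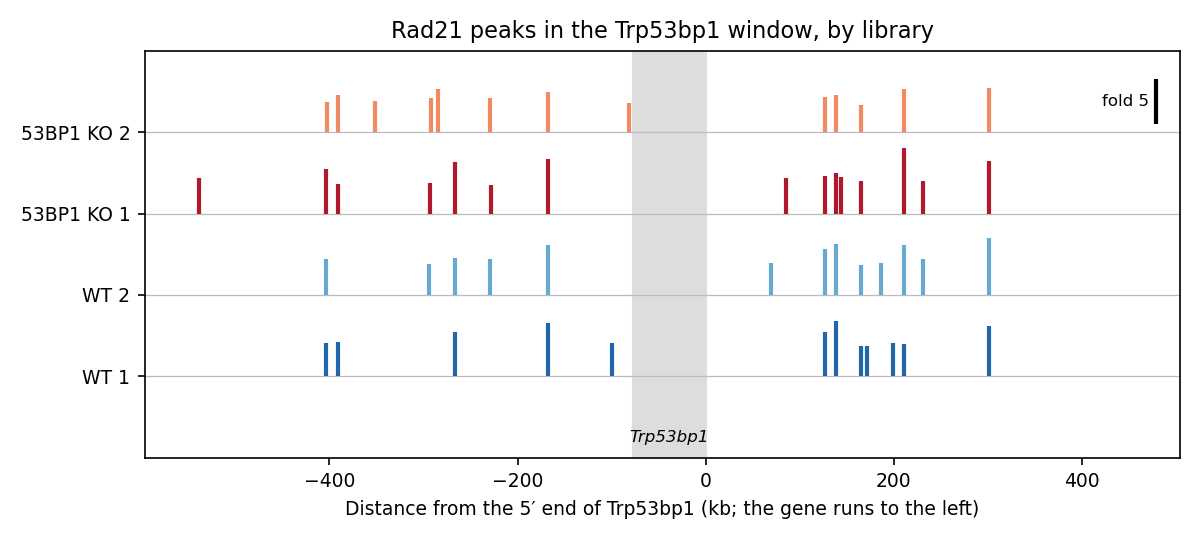
Rad21 peaks of each library (rows) across the 1.1 Mb window, with the distance from the 5′ end of Trp53bp1 in kb on the x axis; each bar is a peak, its height is the authors' fold (scale bar: fold 5), and grey marks the gene. The grey interval holds 0 peaks in every library. The nearest bar is that of KO replicate 2, 4.5 kb beyond the 3′ end and at −81.9 kb on this axis.

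Around the gene the peaks were counted to ask whether either genotype had more. WT replicates 1 and 2 had 12 and 13 peaks in the window, and KO replicates 1 and 2 had 15 and 13. KO replicate 2 matched WT replicate 2, so the groups were not separated, and the difference of means was 1.5 peaks (12.5 ± 0.707 against 14 ± 1.41, mean ± SD, n = 2 each). The two-sided exact permutation test gave p = 0.667, where 0.333 is the lowest value that 2 against 2 libraries allow. Peak names carry a prefix shared by both libraries of a replicate number, and within it KO minus WT was 3 peaks for replicate 1 and 0 for replicate 2. With equal list lengths the difference turned to −1, and requiring a −log10 q of 5 or more gave the same −1. Across 2388 tiles of 1.1 Mb, both KO counts exceeded both WT counts in 14.3% and lay below both in 4.44%, and the window was in neither group. In proportion to list length, the window held 5.46 and 5.65 of every 10000 peaks in WT and 5.97 and 5.70 in KO. On this scale both KO values lay above both WT values, though 5.70 and 5.65 were close. The share of tiles separated on the scaled measure was not computed.

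By side, WT lists had 5 and 5 peaks in the lower flank and KO lists 7 and 8, while in the upper flank WT lists had 7 and 8 and KO lists 8 and 5. The lower flank was the side on which both KO lists had more, and KO replicate 2 had the fewest on the upper side. No background was computed for the flanks, which were compared after the window's counts were seen. For each library the window was somewhat richer than most of the genome, since 67.2% to 69.8% of tiles held fewer peaks than it, and median tiles held 7 peaks, or 8 in KO replicate 1.

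**Figure D3:**
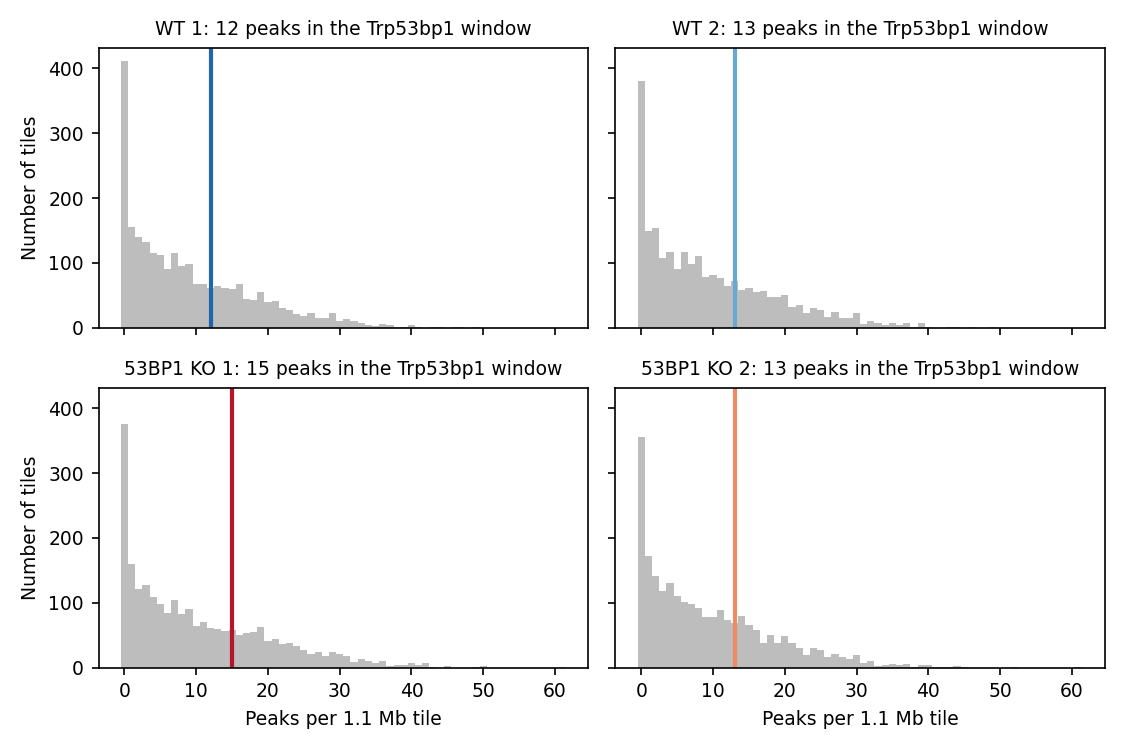
Number of 1.1 Mb tiles (y axis) by the peaks they hold (x axis) for each of the 4 libraries, with the Trp53bp1 window as a coloured line. The window lies at 12, 13, 15 and 13 peaks, to the right of the medians of 7 or 8.

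The length covered by peaks did separate the genotypes. Peaks covered 5.26 and 6.27 kb of the window in WT and 7.33 and 9.60 kb in KO, a difference of 2.70 kb (5.76 ± 0.715 against 8.47 ± 1.61, mean ± SD, n = 2 each). The exact permutation p of 0.333 is the lowest possible and does not pass 0.05. The same separation was found in 21.5% of the tiles with KO above WT and in 10.4% with KO below, so it was common elsewhere. Whole lists covered 12.5 and 12.8 Mb in WT and 13.3 and 14.3 Mb in KO. As a share of that, the window held 0.042% and 0.0489% in WT and 0.0552% and 0.0671% in KO, so the groups stayed separated. No background was computed for this share. KO replicate 2, with the widest peaks of any list (median 564 bp), carried the larger part of the difference in kb. Without that library it was 1.57 kb, and without KO replicate 1 it was 3.84 kb. Equal list lengths gave 1.17 kb, a fold of at least 4 gave 0.996 kb and a −log10 q of at least 5 gave −0.81 kb.

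Each of the 24 regions was classed by its calling libraries, to look for sites that both KO libraries had gained or lost around the gene. Regions called in both KO and in neither WT library numbered 0, against 3.05% of all merged regions, and regions called in both WT and in neither KO library also numbered 0, against 2.19%. At those shares 24 regions would hold 0.731 and 0.525, so 0 is near the background. In all 4 libraries 7 regions were called (29.2%, against 41.7% of all merged regions), and in a single library 12 (50%, against 30.7%). The other classes were 3 regions of 3 libraries (12.5%, against 13.6%) and 2 regions shared by WT replicate 2 and KO replicate 1 (8.33%, against 2.9%). No region of the window therefore followed genotype with all peaks of the lists. Regions just beyond the edges of the window did not follow it either: chr2:120495876-120496406, 3.59 kb below, and chr2:121657899-121658588, 57.9 kb above, were called in all 4 libraries, and chr2:121632830-121633033 in KO replicate 1.

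The 12 regions of a single library were 3 in WT replicate 1, 2 in WT replicate 2, 3 in KO replicate 1 and 4 in KO replicate 2. These were 12.5%, 8.33%, 12.5% and 16.7% of the window's regions, against 4.6%, 6.06%, 10.9% and 9.13% of all merged regions. Regions of a single KO library were thus the more common ones genome-wide too. The folds of the 12 regions ran from 3.27 to 4.76 with a median percentile of 30.2 in their own lists. The peaks of the 7 shared regions had folds from 2.98 to 7.21 and a median percentile of 84.1. The strongest of the 12, chr2:120811090-120811390, 208 kb on the lower side, was called in KO replicate 2 with a fold of 4.76, at percentile 93.0 of that list, and a −log10 q of 3.94. Neither KO replicate 1 nor either WT list had a peak there, so the calls differed between the KO libraries.

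The regions missed by a single library fell on the lower side. At chr2:120829240-120829618, KO replicate 2 had no peak, while WT replicates 1 and 2 and KO replicate 1 had folds of 4.89, 4.07 and 5.75. This was the sole window region of the class that lacks KO replicate 2 alone. At chr2:120866370-120868046 WT replicate 1 was the one without a peak, and the folds were 3.97 in WT replicate 2 and 3.16 and 3.75 in the KO lists. At chr2:120705150-120705753 WT replicate 2 lacked a peak, and the folds were 3.77 in WT replicate 1 and 3.27 and 4.06 in the KO lists. Each of these 3 regions lacked a different library.

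Of the 7 shared regions 2 lay on the lower side and 5 on the upper side. By the same ranking on lowest percentile, the strongest of the upper side was chr2:121397211-121397978, 301 kb from the gene, where WT folds were 5.60 and 6.25 and KO folds 5.78 and 4.88, at percentiles 91.3 to 98.2 of their lists. Its widths of 708, 672, 680 and 682 bp were the most even of the 7. The widest region was chr2:120691992-120693756 on the lower side, 325 kb away, where WT peaks spanned 732 and 1367 bp and KO peaks 725 and 1765 bp. Replicate 2 of each genotype had the wide peak and replicate 1 the narrow one there.

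Peak widths are positions and were compared between libraries directly. In 2 of the 7 shared regions both KO widths exceeded both WT widths, in 0 both were smaller, and in 5 the groups overlapped, against 18.1% and 15.2% of 14484 shared regions for wider and narrower. The larger of these differences was at chr2:121260399-121261494, 164 kb above the gene, where WT peaks spanned 211 and 282 bp and KO peaks 1096 and 675 bp. Folds there were 2.98 to 3.59 in the 4 lists, and the −log10 q of 1.25 to 1.89 was near the lowest of any list, 1.01. The other was chr2:121306136-121306671, where WT peaks spanned 345 and 408 bp and KO peaks 444 and 467 bp. Its WT folds of 3.62 and 5.55 and KO folds of 7.21 and 4.73 overlapped, WT replicate 1 being the lowest and KO replicate 1 the highest. Over all shared regions of the genome the median widths were 594 bp in each WT library and 568 and 656 bp in KO, on either side of WT.

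Folds belong to each list and rank its peaks, so they are set side by side without a test. At chr2:121233899-121234892, 138 kb above the gene, the folds were 6.15 and 5.68 in WT and 4.49 and 4.11 in KO, at percentiles 97.0, 94.8, 63.6 and 74.5 of their lists. Both KO percentiles were below both WT percentiles there. At the neighbouring chr2:121222315-121222872, the nearest shared region on that side, they were 81.3 and 86.8 in WT and 50 and 62.7 in KO, likewise separated. Such a separation was found in 2 of the 7 shared regions with KO lower and 0 with KO higher, against 16.1% and 18.7% of 14484 shared regions. These percentiles rank peaks within lists of different length, so whether binding changed cannot be read from them and was not tested.

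**Figure D4:**
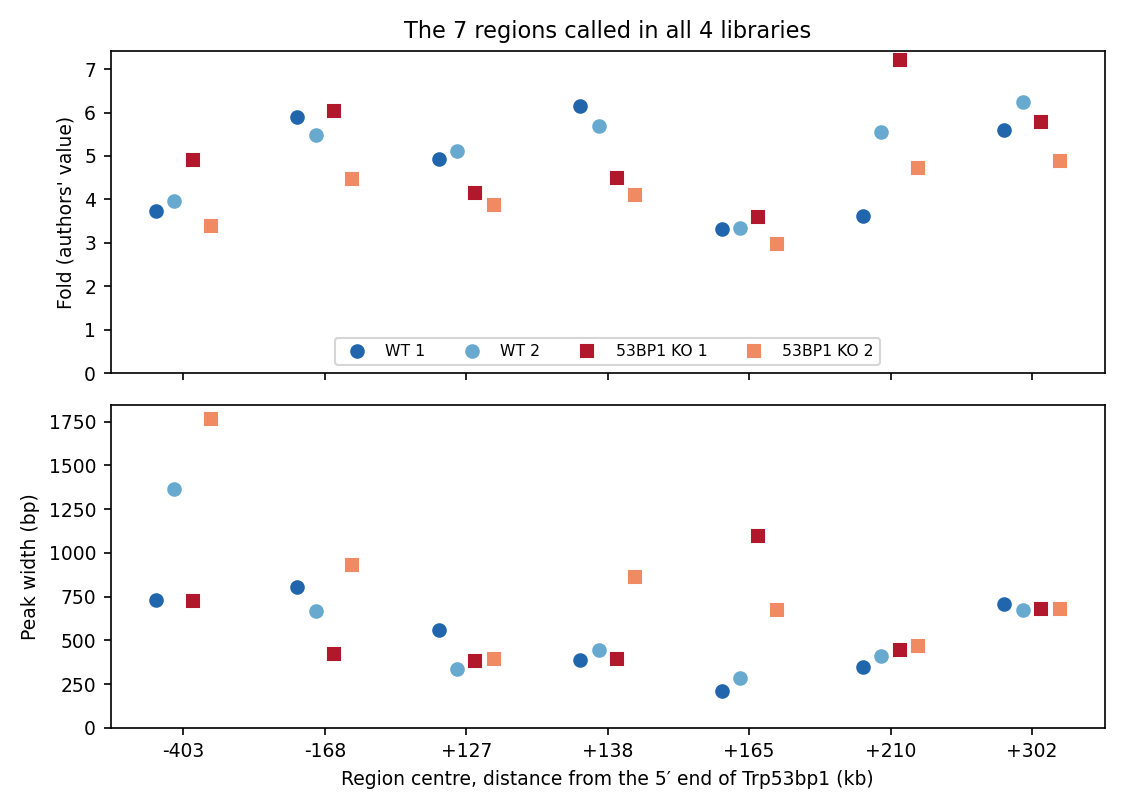
The authors' fold (top, y axis) and the peak width in bp (bottom, y axis) of the 7 window regions called in all 4 libraries, by distance of the region's centre from the 5′ end of Trp53bp1 in kb (x axis); circles are WT and squares 53BP1 KO libraries. The folds of both KO libraries lie below both WT folds at the first 2 regions above the gene, a separation for which no genome-wide share was computed. At the fifth region from the left both KO widths (1096 and 675 bp) exceed both WT widths (211 and 282 bp).

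Of the 12 regions of the upper side, 9 lay in a short stretch. It ran from 121222315 to 121327656, 105 kb, and was chosen after the positions were seen. Of the 9 regions 4 were called in all 4 libraries, against 41.7% of all merged regions. No background was computed for the number of regions in a stretch of this length. The short stretch began where the peak-free stretch of WT replicate 1 and KO replicate 2 ended. Toward the gene, the 126 kb between it and the 5′ end held 2 regions, each of a single library. The dense stretch held 6 and 6 peaks in the WT lists and 6 and 4 in the KO lists, and the gene 0 in each.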

How the data were processed

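Rad21 ChIP-seq peak lists of 2 WT and 2 53BP1 knockout libraries were used. Groups and replicate numbers came from the sample titles. Per the submitters' processing notes, the build was mm9 and the tools included MACS2 2.2.7.1 and Bowtie2 2.4.4, besides deepTools 3.5.1 and SAMtools 1.15.1. How they were set, and whether an input control was used, is not given in the sources used here. A deposited list has the 9 columns of a MACS2 broad peak file and covers 1 library. The deposited fold is the caller's ratio of peak signal to background, and each peak's −log10 p and −log10 q were deposited beside it. The authors' score column repeats the −log10 q, multiplied by 10 and cut to a whole number. The lists hold no reads, so depth is unknown, and a count of 0 peaks carries no limit on signal.

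Positions were made 1-based, and peaks on chromosomes 1 to 19 and X were kept. Peaks lying fully within the window were taken, and peaks of the 4 lists that overlapped or touched were merged into regions. A peak belonged to the gene if at least 1 bp overlapped it. The difference of group means was tested by exact permutation, two-sided, over 6 arrangements, which cannot give less than 0.333. Regions were not tested singly. Tiles of the window's and the gene's length were laid end to end along each chromosome as background. The merging, the classes and the test were tested on simulated data. Named regions were all those at the gene, those following genotype, the strongest and the nearest shared region on each side, and the widest; the others named were chosen after their values were seen. The members, the window and these choices were set with earlier results of these data known. The promoter came from RefSeq's GRCm38.p6 table, and the lists were on mm9, so it was not placed against the peaks. Alternatives were stricter peaks, equal list lengths, other rules of overlap and merging, and leaving out each library. Python 3.11.15, pandas 2.3.3 and NumPy 2.4.6 were used.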

Additional observations from a re-analysis of the deposited data

How the results depend on the processing

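The gene itself held 0 peaks under every alternative except a gene widened by 5 kb, which took in the peak of KO replicate 2 and gave differences (KO minus WT) of 0.5 peaks, 0.248 kb and 3.85 percentage points of the window's peaks. At a −log10 q of at least 5, the window's difference became −1 peak and −0.81 kb, with 1 region in all libraries and 1 in both WT and no KO library. The latter lay at chr2:121233899-121234892, where the −log10 q was 6.81 and 6.23 in WT and 3.19 and 3.1 in KO. A fold of at least 4 gave 0.996 kb and 3 regions in all libraries. Equal list lengths gave −1 peak and 1.17 kb. Where a library had to cover at least 50% of a region to call it, 3 regions were in all libraries and 2 in both KO and no WT library. Leaving out each library in turn gave 1 to 4 regions of KO only and 0 to 3 of WT only, since such a class then rests on 3 libraries; the 4 came without KO replicate 1 and the 3 WT-only regions without WT replicate 2. The cause of the other shifts was not tested. For the region classes under these alternatives no share over all merged regions was computed, so their counts have no background here. In the replicate block, the difference within replicate numbers averaged 1.5 peaks and 2.70 kb, which equals the unpaired one by construction and changed no call. The libraries of a number share that number and the prefix of their peak names, and what the prefix stands for is not given. In peak counts scaled to list length, the deviations of the replicate numbers correlated at 0.079 between genotypes over 2388 tiles. Widths and folds were not checked in this way. The main test left the libraries unpaired, and whether they were paired is not known. Of 67 values under alternatives other than leaving out a library, 54 kept their direction and moved by no more than the spread between libraries, or 1.5 times for counts. Most of the 54 were values of 0 that stayed at 0, and stricter peaks could not have raised the gene's counts. The total is therefore no measure of robustness. Another 10 values moved further and 3 reversed, the latter all in the window's peak count or covered length. Depth is unknown, so an unlisted peak does not show that Rad21 was absent.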
